A study of Homo sapiens with 6 samples.

Results

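FLRT3, FLRT2 and the receptors known to bind them were followed in breast epithelial cells after silencing of PDCD4. The genes described are FLRT2, FLRT3, the latrophilins ADGRL1 and ADGRL2, the netrin receptor UNC5B and the fibroblast growth factor receptor FGFR1, 6 of the 34486 genes to which the deposited transcripts were summed. They are FLRT proteins and known partners of these, and the set was selected on the same summed counts that are compared here between PDCD4-silenced and control cells, so their differences are given as a description with no test. All 6 passed the filter on low counts and are among the 13047 genes tested.

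FLRT proteins are transmembrane adhesion proteins with an outer array of leucine-rich repeats. On a neighbouring cell they bind latrophilins, which are adhesion G protein-coupled receptors, and teneurins can join the same complex. They also bind UNC5 receptors, for which a shed FLRT ectodomain acts as a repulsive cue in the mouse brain, and in frog and mouse embryos FLRT proteins associate with FGF receptors in the same membrane. UNC5 receptors are best known as the receptors through which netrin repels growing axons, and UNC5B also guides blood vessels.

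MCF10A is an immortalised, non-tumorigenic human breast epithelial line, here of WT genotype, grown in medium with horse serum, epidermal growth factor, insulin, hydrocortisone and cholera toxin. In 3 libraries the cells had received siRNA against PDCD4 (siPDCD4), and in 3 a control siRNA (siCT). Both groups were reverse-transfected with siRNA at 10 nM for 48 h, so both carry the effects of transfection. PDCD4 encodes an RNA-binding tumour suppressor, and the comparison asks how gene expression differs once it is reduced. The methods name a single siRNA reagent against PDCD4, so loss of PDCD4 and other effects of that reagent cannot be told apart.

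Totals of estimated counts lay between 15547679 and 18619778 in siPDCD4 and between 13410441 and 21828931 in siCT libraries. PDCD4 stood at 9.16, 7.44 and 8.63 CPM in siPDCD4 libraries, against 90.5, 89.1 and 61.1 CPM in siCT libraries (CPM, estimated counts relative to library size, with TMM factors and a transcript length correction). In a principal component analysis siCT replicate 3 stood apart, at 33.7 on an axis with 28.6% of the variance where the other 5 libraries lay at or below 9.41, and values without it are added below. Epithelial markers summed to between 1948 and 2390 TPM (Salmon's length-corrected relative level) in siPDCD4 and between 1992 and 2431 TPM in siCT, although KRT19, 1 of the 9, stayed below 1 TPM. Fibroblast markers summed to at most 1.82 TPM in siPDCD4 and 2.12 TPM in siCT, endothelial markers to at most 0.743 TPM in siPDCD4 and 0.360 TPM in siCT, and neuronal markers, with STMN2 at 0, to at most 1.96 TPM in siPDCD4 and 2.39 TPM in siCT. Leukocyte markers summed to between 14.7 and 15.4 TPM in siPDCD4 and between 10.8 and 14.1 TPM in siCT, carried by CD14 and CD68, with CD3E at 0 in every library. The part of these markers in the results was not tested. The labels do not say whether replicates came from separate cultures, so p-values and SEs measure the spread between libraries, which may be technical.

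The stretches just upstream of the FLRT3 and FLRT2 starts are shown because these close relatives differed in how they stood between the groups. Any link between these sequences and that difference was not tested. Both are 250 bases of RefSeq (GRCh38.p14), written in the direction of the gene, the first at chr20:14337613-14337862 on the minus strand and the second at chr14:85529894-85530143 on the plus strand. Capitals mark a motif match on either strand.
FLRT3: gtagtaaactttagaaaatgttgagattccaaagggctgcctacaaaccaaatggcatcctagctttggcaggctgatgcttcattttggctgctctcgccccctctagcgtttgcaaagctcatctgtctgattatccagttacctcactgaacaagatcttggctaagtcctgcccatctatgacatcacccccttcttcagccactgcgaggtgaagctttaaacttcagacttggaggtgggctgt
FLRT2: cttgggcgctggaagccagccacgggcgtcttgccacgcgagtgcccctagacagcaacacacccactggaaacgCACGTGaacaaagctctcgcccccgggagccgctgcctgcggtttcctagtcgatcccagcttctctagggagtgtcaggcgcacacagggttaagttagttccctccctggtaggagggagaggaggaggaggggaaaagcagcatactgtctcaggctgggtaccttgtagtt
Common core promoter and factor motifs were searched on both strands in the RefSeq windows from 250 bases before to 50 bases after each start. These were the TATA box TATAAA, found in 11.5% of 35116 windows, the CCAAT box CCAAT in 34.6%, the GC box GGGCGG in 44.95%, the AP-1 site TGANTCA in 7.71% and the E-box CACGTG in 7.26%. The single FLRT3 window held none of these letters. Of the 3 FLRT2 windows, the one shown in part above held an E-box at -175 from the start, that at chr14:85533099-85533398 held a GC box at 35 and the remaining one held none. The FLRT2 stretch shown lies at the annotated start of the gene. FLRT2-209, with most of the FLRT2 counts, starts at 85533961, which lies outside all 3 FLRT2 windows. The GC content was 48.7% in the FLRT3 window and 59.0%, 65.0% and 65.0% in the FLRT2 windows, against a median of 58.7% over all windows. Windows were found for FLRT2, FLRT3 and ADGRL2 and not for ADGRL1 and UNC5B, and FGFR1 was not searched.

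Of the 6 genes, FLRT3 had the lowest level in siPDCD4 relative to siCT. Its level was 20.3, 16.6 and 19.9 CPM in siPDCD4 replicates 1, 2 and 3, against 44.3, 41.5 and 38.02 CPM in siCT replicates 1, 2 and 3. The 3 siPDCD4 libraries lay close together and all lay below every siCT library. In bulk RNA, less FLRT3 RNA per cell and fewer cells with FLRT3 cannot be told apart. The means were 18.9 ± 2.04 CPM in siPDCD4 and 41.3 ± 3.14 CPM in siCT (SD, n = 3 each), a log2 fold change of -1.13 ± 0.12 (SE), or a difference of -54.2%. The estimated counts behind these levels were 349, 253 and 298 in siPDCD4 and 901, 748 and 482 in siCT. Without siCT replicate 3 the log2 fold change was -1.18. Over all 14 other settings and left-out libraries it lay between -1.18 and -1.04.

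FLRT3 lies on chromosome 20 from 14322985 to 14337614 on the minus strand (GRCh38), inside intron 3 of MACROD2, which is transcribed from the plus strand and encodes an enzyme that removes ADP-ribose from proteins. MACROD2 did not pass in edgeR (log2 fold change 0.30 ± 0.40, n = 3 per group, adjusted p = 0.955). The library kit keeps strand, but the sources used here do not state how strand entered the estimates, so FLRT3 reads and reads of the MACROD2 strand may not be fully separated. FLRT1, the remaining FLRT gene, lies within intron 3 of MACROD1. It had 1 count in siPDCD4 replicate 2 and in siCT replicate 1 and 0 in the other 4 libraries, so its level was at the limit of detection at this depth.

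FLRT2 did not share the difference seen in FLRT3. It lies on chromosome 14 from 85530144 to 85654428 on the plus strand, and its level was 50.5, 43.5 and 60 CPM in siPDCD4, against 42.4, 42.9 and 52.3 CPM in siCT. The groups overlapped, with siCT replicate 3 above 2 of the siPDCD4 libraries. The means were 51.4 ± 8.28 CPM in siPDCD4 and 45.9 ± 5.57 CPM in siCT (SD, n = 3 each), a log2 fold change of 0.17 ± 0.13 (SE). Leaving out a library moved it between 0.05, without siPDCD4 replicate 3, and 0.27, without siPDCD4 replicate 2 or siCT replicate 3.

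The balance between both FLRT genes therefore differed between the groups. Measured in TPM, which divides by transcript length, FLRT3 made up 38.02%, 36.8% and 33.7% of the summed FLRT level in siPDCD4, against 61.5%, 59.6% and 52.7% in siCT. FLRT2 was thus the more abundant gene in every siPDCD4 library and FLRT3 in every siCT library. The ratio of FLRT3 to FLRT2 TPM was 0.613, 0.583 and 0.508 in siPDCD4, against 1.6, 1.48 and 1.11 in siCT. The summed FLRT level was 14.4 ± 1.87 TPM in siPDCD4 and 19.3 ± 0.350 TPM in siCT (SD, n = 3 each).

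**Figure D1:**
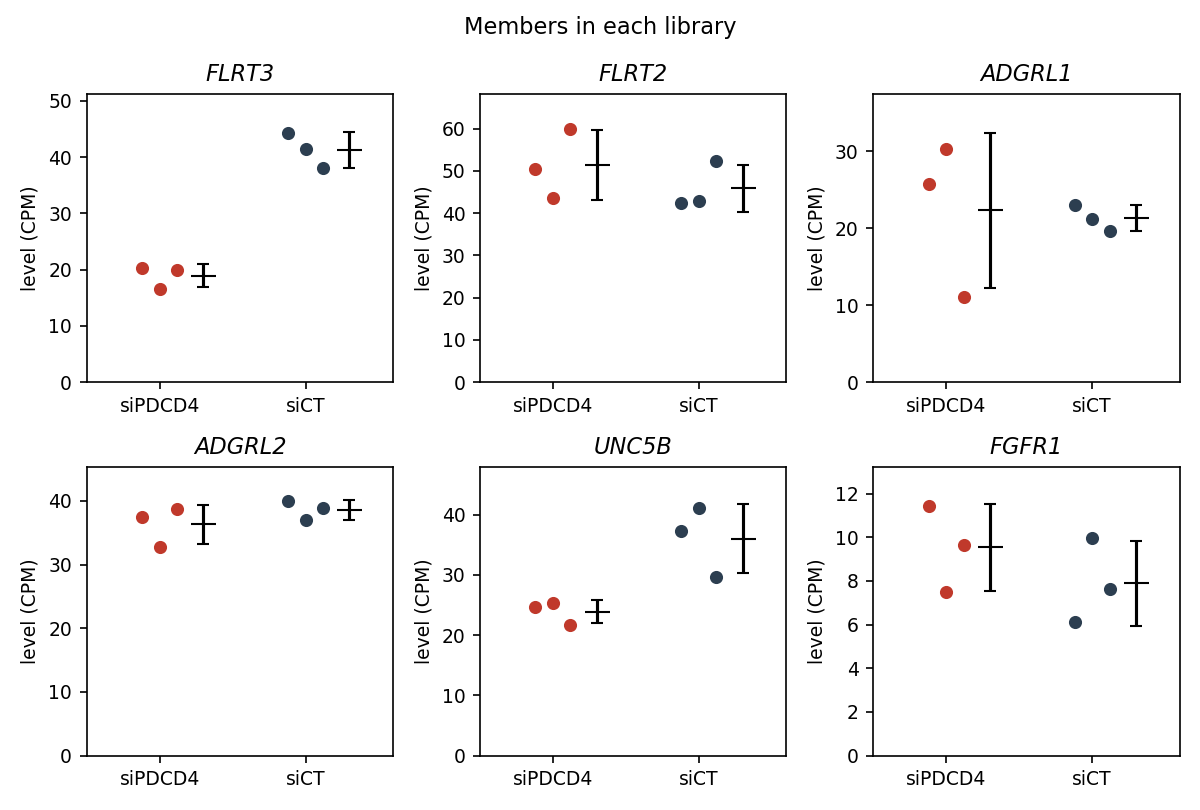
The 6 genes in each siPDCD4 library (red) and siCT library (dark blue), as CPM on a y axis that starts at 0. Black marks give group means with SD (n = 3). FLRT3 lay between 16.6 and 20.3 CPM in siPDCD4 and between 38.02 and 44.3 CPM in siCT, and UNC5B also separated the groups, whereas the groups of the other 4 genes overlapped.

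The latrophilins, the main receptors of FLRT3 across a cell contact, showed no separation of the groups. ADGRL2, on chromosome 1 from 81306147 to 81993932, had 37.4, 32.8 and 38.7 CPM in siPDCD4, against 39.9, 36.9 and 38.9 CPM in siCT. The ranges overlapped, and the log2 fold change was -0.09 ± 0.10. Of the 6 genes ADGRL2 had the smallest SE, and leaving out a library kept its log2 fold change between -0.13 and -0.02.

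ADGRL1, on chromosome 19 from 14147743 to 14206187, had 25.8, 30.3 and 11.03 CPM in siPDCD4, against 23.0, 21.2 and 19.7 CPM in siCT. The siPDCD4 libraries thus lay on both sides of the siCT range, with replicate 3 the lowest of all 6 and replicate 2 the highest. The means were 22.4 ± 10.1 CPM in siPDCD4 and 21.3 ± 1.68 CPM in siCT (SD, n = 3 each), and the log2 fold change of 0.07 ± 0.33 had the largest SE of the 6 genes. It was 0.40 without siPDCD4 replicate 3, -0.21 without siPDCD4 replicate 2 and -0.054 without siPDCD4 replicate 1. Only 1 of its 8 annotated transcripts was among the matched transcripts, so the other 7 are not covered. The summed TPM of both latrophilins was 9.98, 9.61 and 8.32 in siPDCD4, against 9.69, 9.57 and 9.09 in siCT.

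UNC5B, which FLRT proteins bind as a repulsive ligand, was the second gene whose groups did not overlap. It lies on chromosome 10 from 71212570 to 71302864. Its level was 24.7, 25.3 and 21.7 CPM in siPDCD4, against 37.3, 41.0 and 29.7 CPM in siCT, and the lowest siCT library was replicate 3. The means were 23.9 ± 1.96 CPM in siPDCD4 and 36.0 ± 5.75 CPM in siCT (SD, n = 3 each). The log2 fold change was -0.60 ± 0.14 (SE), a difference of -33.8%, and -0.71 without siCT replicate 3. The smallest value was -0.49, without siCT replicate 2.

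FGFR1, a receptor tyrosine kinase for FGF ligands, had the fewest counts of the 6 in each group. It lies on chromosome 8 from 38400215 to 38468834. Its level was 11.5, 7.48 and 9.67 CPM in siPDCD4, against 6.10, 9.96 and 7.63 CPM in siCT, with overlapping ranges and a log2 fold change of 0.28 ± 0.23. It was 0.11 without siCT replicate 1, 0.13 without siPDCD4 replicate 1, 0.43 without siPDCD4 replicate 2 and 0.48 without siCT replicate 2. The direction rested on the correction for transcript length, since without it the log2 fold change was -0.047. The estimated counts were 150, 110 and 148 in siPDCD4 and 180, 152 and 107 in siCT, spread over 28 of 58 annotated transcripts. Their average length came out at between 1717 and 2385 bases in siPDCD4 and at 3335, 2044 and 2628 bases in siCT. Transcripts annotated as protein-coding held 37.1%, 37.1% and 23.5% of these counts in siPDCD4, against 46.2%, 54.4% and 53.2% in siCT. Transcripts annotated for nonsense-mediated decay held 41.8%, 36.4% and 38.9% in siPDCD4, against 30.7%, 20.4% and 1.16% in siCT. With so few reads per transcript, and with estimates for single transcripts such as FGFR1-247 running between 0 and 52.5 counts, these shares depend on how Salmon divided shared reads.

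The 6 genes can be set beside the whole table. edgeR called 0.429% of the 13047 genes at a false discovery rate (FDR) of 5% and 0.261% as lower in siPDCD4, and 1 of the 6, FLRT3, was among them. DESeq2 called 1.28% of the 14051 genes it tested and 2 of the 6, FLRT3 and UNC5B. edgeR called UNC5B as well in 3 other settings, namely without the expression filter, without the length offset and with the replicate number as a block. In that order, these settings called 108 of 19505, 128 of 13047 and 102 of 13047 genes, against 56 of 13047 in the main fit. Groups did not overlap in 13.9% of all tested genes and lay lower in siPDCD4 in 7.14%, against 2 of the 6, both lower. Of the 6 log2 fold changes 3 were above and 3 below 0, with a median of -0.01, and the median over all tested genes was also -0.01. Nothing is read from these counts, since the genes were chosen with this difference known.

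Levels of the 6 genes can be ranked only per length, so TPM is used here. In siPDCD4 the order of the mean TPM was FLRT2 (9.21 ± 1.43), ADGRL2 (6.65 ± 0.547), FLRT3 (5.20 ± 0.559), FGFR1 (3.69 ± 0.771), UNC5B (3.39 ± 0.300) and ADGRL1 (2.65 ± 1.20). The ranges of neighbours overlapped between FGFR1 and UNC5B and between UNC5B and ADGRL1. In siCT the order was FLRT3 (11.2 ± 0.985), FLRT2 (8.10 ± 0.848), ADGRL2 (6.96 ± 0.103), UNC5B (5.05 ± 0.975), FGFR1 (3.02 ± 0.859) and ADGRL1 (2.49 ± 0.215). Here only FGFR1 and ADGRL1 overlapped among neighbours. FLRT3 thus held rank 3 in siPDCD4 and rank 1 in siCT, which was percentile 34.4 of the tested genes by TPM in siPDCD4 and 52.9 in siCT. The last place of ADGRL1 rests on 1 of its 8 annotated transcripts. Over protein-coding transcripts alone ADGRL1 ranked 5 and FGFR1 6 by mean in both groups, with overlapping ranges.

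**Figure D2:**
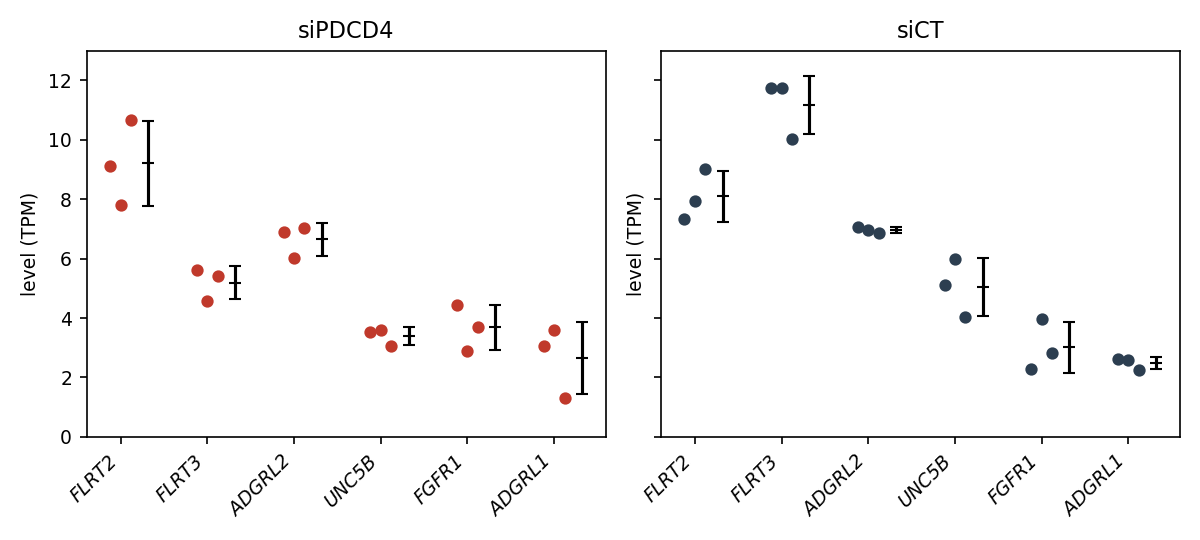
Level in TPM (y axis, from 0) of the 6 genes (x axis) in siPDCD4 libraries on the left and siCT libraries on the right, a point for each library and black marks for mean and SD (n = 3). FLRT3 averaged 5.20 TPM in siPDCD4 and 11.2 TPM in siCT, where it was the most abundant of the 6.

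Part of the FLRT3 level in TPM came from a short transcript. FLRT3-203, annotated without a defined coding sequence, had 1.95, 1.21 and 2.06 TPM in siPDCD4, against 3.89, 3.49 and 3.06 TPM in siCT. Summed over protein-coding transcripts, FLRT3 had 3.65, 3.35 and 3.37 TPM in siPDCD4, against 7.85, 8.24 and 6.97 TPM in siCT, and the groups again did not overlap. On that scale FLRT3 kept rank 3 by mean in siPDCD4 and rank 1 in siCT. Rank 3 was not resolved, since FLRT3 averaged 3.46 TPM and UNC5B 3.39 TPM in siPDCD4, with overlapping ranges. In siPDCD4 replicate 2 both UNC5B and ADGRL1 lay above FLRT3. FLRT2 had 6.61, 5.90 and 7.13 TPM in siPDCD4, against 5.87, 6.11 and 5.51 TPM in siCT, and all 3 siCT libraries again held more FLRT3 than FLRT2. This scale was chosen after seeing the data.

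All 3 FLRT3 transcripts were lower in siPDCD4. The coding transcript FLRT3-202 had 2.57, 2.61 and 2.32 TPM in siPDCD4, against 6.07, 5.91 and 4.29 TPM in siCT. The other coding transcript, FLRT3-201, had 1.08, 0.735 and 1.05 TPM in siPDCD4, against 1.78, 2.33 and 2.68 TPM in siCT. Each of the 3 thus lay lower in every siPDCD4 library than in every siCT library. The share of FLRT3 counts given to FLRT3-202 was 68.5% ± 5.59 in siPDCD4 and 66.6% ± 7.65 in siCT (SD, n = 3 each), a difference within the spread. For UNC5B, UNC5B-202 had 2.65, 2.16 and 2.53 TPM in siPDCD4, against 4.21, 4.35 and 3.27 TPM in siCT, and its groups did not overlap. UNC5B-201 had 0.875, 1.44 and 0.516 TPM in siPDCD4, against 0.903, 1.65 and 0.781 TPM in siCT, and its groups overlapped. The share of UNC5B counts given to UNC5B-202 was 71.6% ± 11.98 in siPDCD4 and 77.5% ± 5.43 in siCT (SD, n = 3 each). That difference lay within the spread, so a change limited to UNC5B-202 was not shown.

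**Figure D3:**
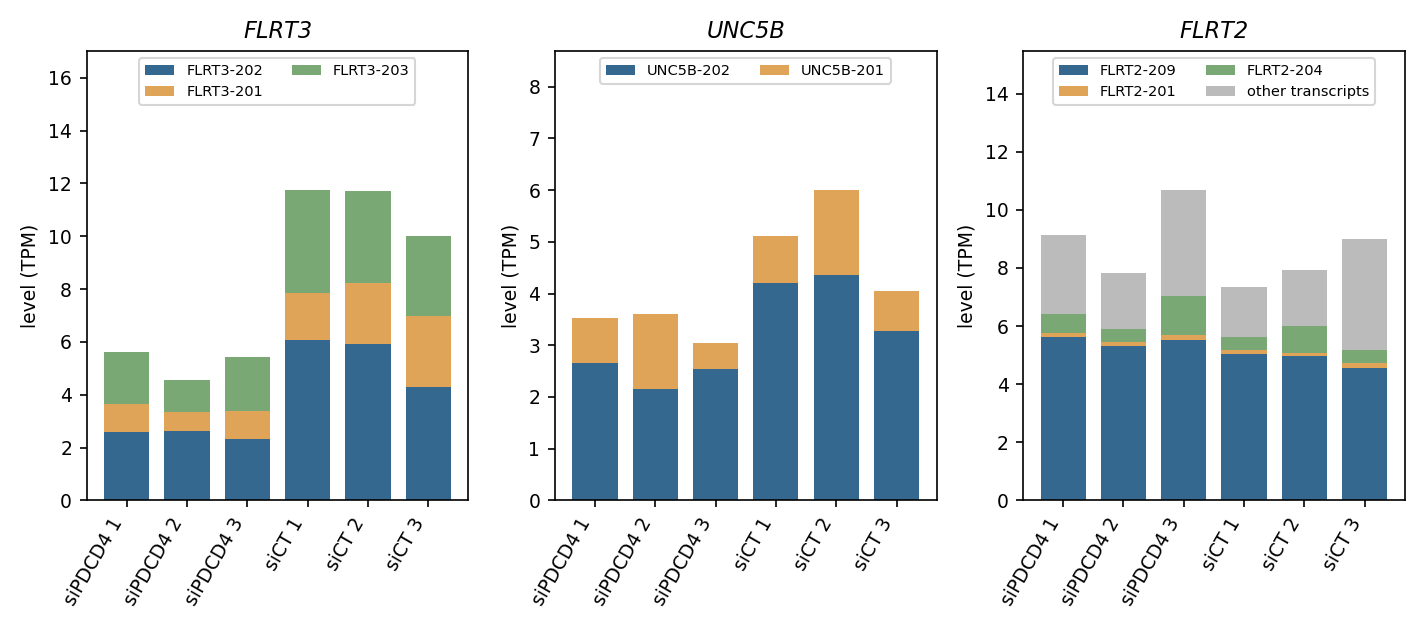
Level in TPM (y axis, from 0) of the transcripts of FLRT3, UNC5B and FLRT2, stacked per library (x axis). FLRT3-202 reached 2.61 TPM at most in siPDCD4 and at least 4.29 TPM in siCT, while FLRT2-209, which held 79.1% of the FLRT2 counts, showed no such gap.

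The genes whose profile over the 6 libraries was most like that of FLRT3 were sought among 12249 genes, by the root mean square difference of log2 CPM around each gene's mean. These were CALU (0.119), which encodes calumenin, a calcium binder in the secretory pathway, the sodium channel subunit SCNN1G (0.138), the oestrogen sulfotransferase SULT1E1 (0.165), DCAF12 (0.183), a substrate receptor of a ubiquitin ligase, and the calcium-binding protein S100P (0.190), against a median of 0.588 over all genes. With TPM in place of CPM 4 of these 5 remained. UNC5B stood at 0.322, rank 67, ADGRL2 at rank 2131 and FLRT2, ADGRL1 and FGFR1 at ranks 9430, 10829 and 10872. All points share the same 6 libraries and the likeness is a description only.

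**Figure D4:**
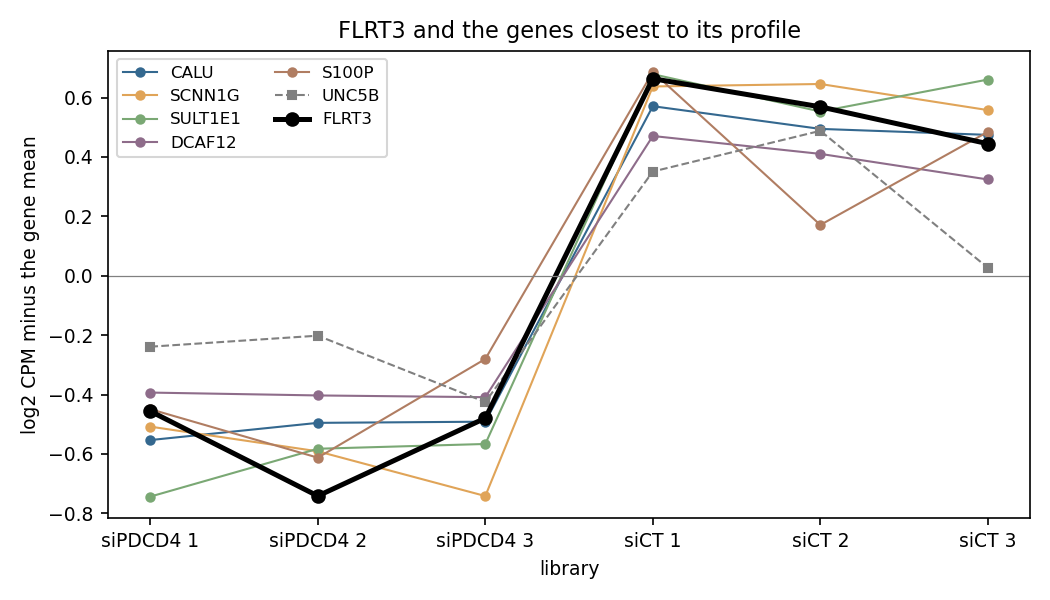
Log2 CPM minus the mean of each gene (y axis) in the 6 libraries (x axis) for FLRT3 (thick black), the 5 genes closest to it and UNC5B (dashed grey). FLRT3, CALU, SCNN1G, SULT1E1, DCAF12 and S100P lay below their mean in all 3 siPDCD4 libraries and above it in all 3 siCT libraries. The 5 genes were picked for this likeness, so their place is a description only.

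Lists of 180 further genes covered the wider families of the 6 genes, other guidance and adhesion families, and MACROD1 and MACROD2. Of these genes 177 were in the tables and 96 passed the expression filter. None of the 6 belongs to the semaphorins, plexins and neuropilins (23 of the 96), ephrins and Eph receptors (17) or Slit and Robo genes (4). At the 5% FDR edgeR called 0 of the 96, while 17 (17.7%) had an unadjusted p under 0.05, against 8.62% of all tested genes. DESeq2 called 3, NRP2, AMIGO2 and TENM4, against 1.28% of all genes it tested. Of the 96, 57 had a log2 fold change above 0 and 39 below, with a median of 0.11, against -0.01 over all tested genes. Groups did not overlap in 16 (16.7%), of which 10 were higher and 6 lower in siPDCD4, against 13.9% of all tested genes, of which 888 were higher and 932 lower. Nothing is read from these shares, since the lists were chosen with earlier results of these data known.

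Among the other partners of FLRT proteins, 6 genes were measured, 4 above and 2 below 0, and 0 passed. RND3, a small GTPase related to the Rnd1 that binds FLRT3 in frog embryos, was the most abundant, at 38.9 TPM in siPDCD4 and 38.2 TPM in siCT (log2 fold change 0.00 ± 0.09). The teneurin TENM3, which binds latrophilins, had 6.04 TPM in siPDCD4 and 6.63 TPM in siCT (-0.15 ± 0.14). TENM4 stood at 1.36 ± 0.41 on the log2 scale (n = 3 per group, adjusted p = 0.329 in edgeR), but its estimated counts were 129, 110 and 154 in siPDCD4 and 164, 161 and 123 in siCT. Its estimated average length was 2826, 8660 and 3172 bases in siPDCD4, against 12120, 9800 and 11550 bases in siCT. Without the length correction the TENM4 log2 fold change was -0.15, so its direction rested on how reads were divided among short and long transcripts. ADGRL3, the latrophilin that binds FLRT3 with high affinity, was low, at 0.230 TPM in siPDCD4 and 0.338 TPM in siCT (-0.52 ± 0.40, adjusted p = 0.859), and its log2 fold change was -0.050 without siCT replicate 3.

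In the UNC5 and netrin list 6 genes were measured, 3 above and 3 below 0, and 0 passed. The netrin gene NTN4 had 8.83 TPM in siPDCD4 and 8.93 TPM in siCT (-0.03 ± 0.16), and MAGED1, whose rodent counterpart binds UNC5A, had 20.0 TPM in siPDCD4 and 21.6 TPM in siCT (-0.13 ± 0.12). NEO1, the netrin and RGM receptor neogenin, stood at 0.29 ± 0.12 on the log2 scale (adjusted p = 0.544), and DAPK1, a death kinase that works downstream of UNC5 receptors, had -0.38 ± 0.24 (adjusted p = 0.795). Both are from the edgeR fit with 3 libraries per group.

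In the FGF list 13 genes were measured, 5 above and 8 below 0, and 0 passed. The most abundant were FGFBP1, which releases FGFs from the matrix, at 47.9 TPM in siPDCD4 and 50.4 TPM in siCT, FGF2 at 10.0 TPM in siPDCD4 and 11.4 TPM in siCT, and the receptor without kinase domain FGFRL1 at 9.89 TPM in siPDCD4 and 8.76 TPM in siCT. Their log2 fold changes were -0.10 ± 0.34, -0.21 ± 0.23 and 0.16 ± 0.15. Without siCT replicate 3 they were -0.35 for FGFBP1, -0.028 for FGF2 and 0.32 for FGFRL1. FRS2, the docking protein through which FGF receptors signal, had -0.45 ± 0.13 and did not pass in edgeR (adjusted p = 0.249, lower in 3 of 3 siPDCD4 libraries). IL17RD, an inhibitor of FGF signalling, had 0.23 ± 0.16 (adjusted p = 0.821).

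**Figure D5:**
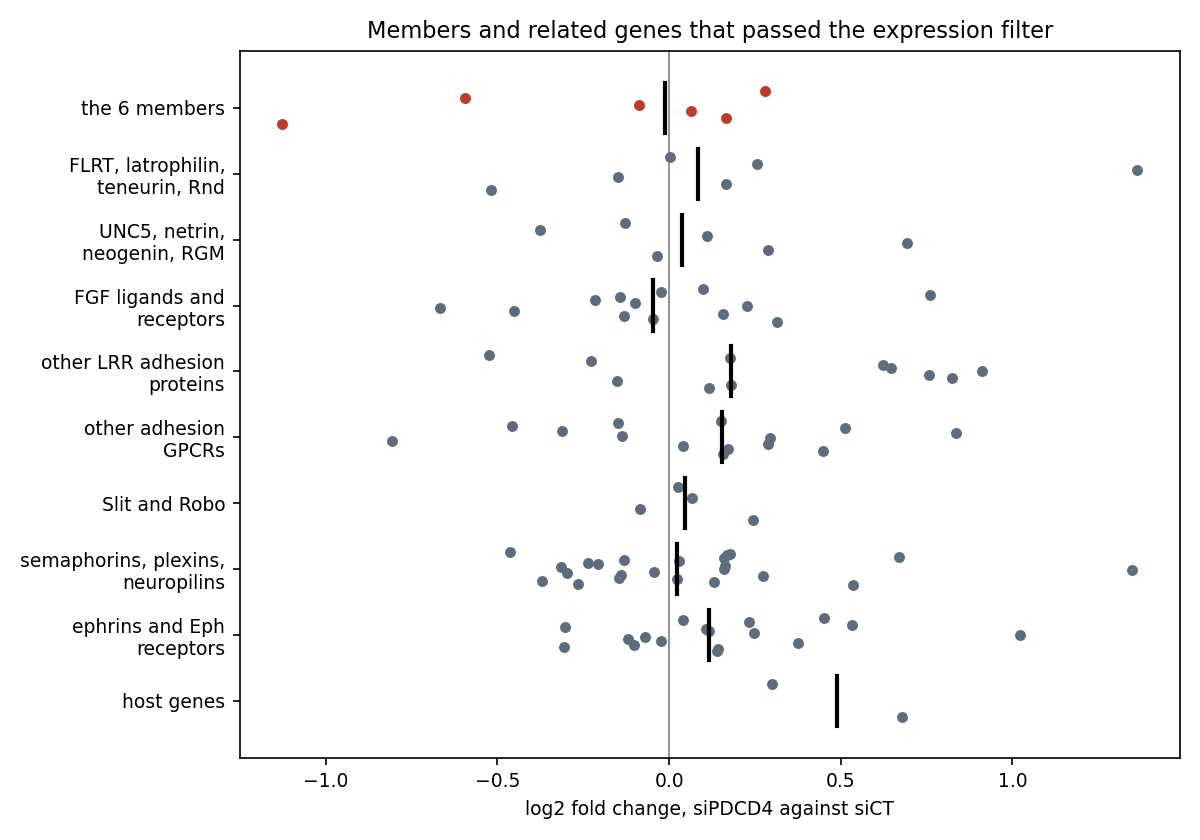
Log2 fold changes (x axis, siPDCD4 over siCT) of the 6 genes (red, top row) and of the tested genes in 9 further lists (grey points). Points are spread vertically for legibility, and a black line gives the median of each row. FLRT3 at -1.13 lies further left than any gene of the lists, whose lowest value was -0.81. The 6 genes were chosen with this difference known, so their place is a description only.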

How the data were processed

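Total RNA of 6 MCF10A libraries was sequenced from both fragment ends with 75-base reads. Per the labels and methods, the authors ran Salmon, in a version the sources used here do not state, against a GRCh38 transcriptome. The estimated counts were made and deposited by the authors, 1 table per library, as were the TPM values. Of 194142 transcripts listed, 181244 were matched by identifier to GENCODE on GRCh38. The remaining 12898, with 5.47% to 6.21% of each library's counts, were not used here. Counts were not whole for 36.2% to 39.1% of transcripts.

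Transcripts were summed per gene. Rounded sums entered edgeR 4.0.16 under R 4.3.3 (robust quasi-likelihood F test, TMM factors, filterByExpr, group as the only factor, offset for average transcript length), with Benjamini-Hochberg adjustment over 13047 genes at an FDR of 5%. DESeq2 1.42.0 was the alternative test. An SE is the log2 fold change divided by the square root of F. Profiles were compared on log2(CPM + 0.25) in genes with a mean of at least 1 CPM. The fit was tested on simulated data for all 13047 genes. There edgeR found 77% of log2 changes of size 1 and 94% of those of size 2, with 17 false calls (9.04% of its calls). DESeq2 made 31 (15.4%), and both shares of false calls lay above the 5% FDR. The median biological coefficient of variation was 0.125.

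The 6 genes and all lists were chosen with earlier results of these data known. Named besides were PDCD4, both host genes, per list any gene past the FDR or up to 2 with the smallest p, the 3 most abundant of the FLRT, UNC5 and FGF lists, and the 5 genes closest to FLRT3. Alternatives were other scaling factors and filters, no length offset, no robust estimation, a replicate block and leaving out each library. Replicates differed by more than sampling noise in every pair, so none was counted as a duplicate. Software was Python 3.11.15, pandas 2.3.3 and matplotlib 3.10.9.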

Additional observations from a re-analysis of the deposited data

How the results depend on the processing

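FLRT3 kept its direction in all 14 other settings and left-out libraries, and so did UNC5B (between -0.71 and -0.49), FLRT2 (between 0.05 and 0.27) and ADGRL2 (between -0.13 and -0.02). ADGRL1 turned to -0.018 with the replicate block. The number of genes called, 56 of 13047, was 108 with no expression filter, 128 with no length offset, 102 with the replicate block and 180 with DESeq2, and leaving out a library gave between 17, without siPDCD4 replicate 1, and 40, without siCT replicate 3. It was 22 without siPDCD4 replicate 2, 30 without siPDCD4 replicate 3 and 32 without siCT replicate 2. Of the 96 listed genes, 0 of which passed, 1 passed with no expression filter (NRP2), 1 with no length offset (NRP2), 1 with the replicate block (AMIGO2) and 3 with DESeq2. Leaving out a library gave between 0 and 1 (TENM4, 1.77 without siPDCD4 replicate 2). The labels do not say whether the replicate numbers pair the libraries. Same-numbered libraries correlated at 0.0596, 0.104 and 0.168 in their deviations. siPDCD4 replicates 2 and 3 correlated best with the siCT library of their own number, and siPDCD4 replicate 1 with siCT replicate 2. Pairing was thus not settled. With no length offset TENM4 turned to -0.15, FGFR1 to -0.047, DAPK1 to 0.22, MAGED1 to 0.048 and NTN4 to 0.011, and EPHA4 (0.42), SEMA3F (-0.18), IL17RD (0.10), ADGRL3 (-0.26) and MACROD2 (0.069) came nearer to 0. Leaving out a library moved ROBO3 between -0.042 and 0.20, RND3 between -0.041 and 0.052, NTN4 between -0.21 and 0.055 and FGFBP1 between -0.35 and 0.13, and, within a direction, FGFR1 between 0.11 and 0.48, FGF2 between -0.49 and -0.028, FGFRL1 between 0.042 and 0.32, TENM3 between -0.30 and -0.039, SLIT2 between 0.15 and 0.38, MACROD1 between 0.42 and 0.97 and MACROD2 between 0.059 and 0.58. Among the genes picked for likeness to FLRT3, S100P passed in 8 of 14 settings, and CALU, SCNN1G, SULT1E1 and DCAF12 in 14. That choice favours genes that differ between the groups, so nothing is read from these passes. Over protein-coding transcripts, a scale added after seeing the data, FLRT3 ranked 3 in place of 2 over all 6 libraries, ADGRL2 2 in place of 3, ADGRL1 5 in place of 6 and FGFR1 6 in place of 5. The causes were not tested. Counts of at most 40 per library limit ADGRL3 and MACROD2, and FLRT1 had at most 1.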

Other observations

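The other guidance and adhesion families gave mixed values, and no gene of them passed the 5% FDR in edgeR. Among semaphorins, plexins and neuropilins 12 of 23 lay above 0 and 11 below. NRP2, a co-receptor of class 3 semaphorins, stood at -0.46 ± 0.11 on the log2 scale (adjusted p = 0.130 in edgeR, past the FDR in 3 of 14 other settings), and SEMA3F, its repulsive ligand, had -0.37 ± 0.13 (adjusted p = 0.405). Among ephrins and Eph receptors 11 of 17 lay above 0, with EPHA4 at 1.02 ± 0.37 (adjusted p = 0.413, and 0.42 on the log2 scale without the length offset) and EPHB2 at 0.53 ± 0.20 (adjusted p = 0.445). Slit and Robo genes lay between -0.08 and 0.25, with SLIT2 at 0.25 ± 0.19 and ROBO3 at 0.07 ± 0.14 (adjusted p = 0.856 and 0.974).

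Other leucine-rich repeat adhesion proteins had 8 of 11 genes above 0, with the homophilic adhesion protein AMIGO2 at 0.65 ± 0.17 (adjusted p = 0.236 in edgeR, past the FDR in 2 of 14 other settings) and SLITRK6 at 0.82 ± 0.25 (adjusted p = 0.297). Other adhesion G protein-coupled receptors had 9 of 14 above 0, with ADGRG2 at -0.46 ± 0.18 (adjusted p = 0.467) and ADGRG1, a receptor for matrix proteins, at 0.51 ± 0.22 (adjusted p = 0.524). MACROD1, the host gene of FLRT1, had 0.68 ± 0.30 (adjusted p = 0.560).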
